A study of Mus musculus with 6 samples.

Results

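A set of 10 mouse genes was followed across RNA-seq libraries of lung endothelial cells (ECs): the cold-inducible RNA-binding protein genes Cirbp and Rbm3, the CDC2-like kinase (CLK) genes Clk1, Clk2 and Clk4, the SR protein genes Srsf2, Srsf3, Srsf5 and Srsf7, and the SR-like gene Tra2a. They are 10 of the 47729 genes counted, and each was found by its Ensembl identifier. They were chosen by family, and with the difference between KO and WT in these same libraries already known, so that the values of this contrast are given below as a description and not as a test. Cirbp and Rbm3 are the cold-inducible genes and the CLK genes the kinases, whereas the SR and TRA2 proteins are substrates of such kinases. All 10 passed the filter on low counts, with between 187 counts (Clk4) and 2161 counts (Srsf2) per library. The data came from 3 WT and 3 leene-KO libraries. All mice were males of 14 weeks on normal chow, and both groups received AngII at 1000 ng/kg/min for 2 weeks from an osmotic pump, so no library without AngII was compared. KO mice, on a C57BL6 background, lacked in every cell type the region that corresponds to human LEENE/LINC00520 and holds 3 lncRNA genes. The labels call the cells CD31-enriched and pooled from 3 mice per group, whereas the methods name CD144 sorting. A library is therefore counted as a replicate without knowing whether it is an independent animal. The SDs and standard errors below rest on the spread between libraries, which may be technical. The 3 lncRNA genes of that region were not analysed here, so the genotypes of these libraries rest on the labels. By qPCR of heart and aorta, the paper reported a strong decrease of leene in KO mice. It reported no significant difference for the other lncRNAs of the region.

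These genes encode RNA-binding proteins and kinases of splicing factors, some of which respond to temperature. CIRBP and RBM3 are small proteins with an RNA recognition motif and a glycine-rich tail, and both are induced when mammalian cells are mildly cooled and reduced when cells are warmed. SR proteins carry an RNA recognition motif and a tail of arginine-serine repeats, bind exonic enhancers and help to define exons. CLK kinases phosphorylate those repeats and release SR proteins from nuclear speckles, and their activity is higher at lower body temperature. TRA2 proteins are SR-like activators of exons. Many genes of these families also control their own output by keeping an intron or by including an exon that sends the transcript to nonsense-mediated decay.

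Total counts per library lay between 24464324 and 35184063, and 37.4% to 54.5% of them fell on mitochondrial genes. Values are given as CPM, counts per 1000000 counts of a library whose size was scaled with edgeR's TMM method. The 15 EC markers summed to 2345 to 4191 CPM in WT and 2656 to 4277 CPM in KO, and none of them was at 0 throughout. Markers of other lung cells were also present. The 5 alveolar type II markers summed to 4934, 46390 and 14400 CPM in WT replicates 1, 2 and 3 and to 36570 to 44950 CPM in KO, and the 3 club cell markers to 15350 to 40400 CPM in WT and 33560 to 56770 CPM in KO. Of the 14625 genes tested by quasi-likelihood in edgeR with the Benjamini-Hochberg correction, 16 passed an adjusted p of 0.05, with 5 higher (0.0342%) and 11 lower (0.0752%) in KO. The split was 61 and 62 with total-count scaling. Without WT replicate 2, 791 genes were called, and without KO replicate 1, 2 or 3 none was, with 992, 986 and 1112 genes at an unadjusted p under 0.05.

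The 10 genes did not move as a block. Cirbp and Srsf5 were higher in every KO library than in any WT library, Srsf2, Srsf7 and Tra2a were lower in every KO library, and the WT and KO values of Rbm3, Clk1, Clk2, Clk4 and Srsf3 overlapped. Thus 5 of 10 had separate groups, where 17.8% of all genes tested did (8.59% higher and 9.2% lower in KO), and 1 of 10 (Cirbp) was among the genes called, where 0.109% of all genes were. Nothing is read from either count, since the same contrast was in view when the genes were chosen. The median log2 fold change of the 10 was -0.083, beside 0.033 over all genes tested, with 5 genes above 0 and 5 below it.

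**Figure D1:**
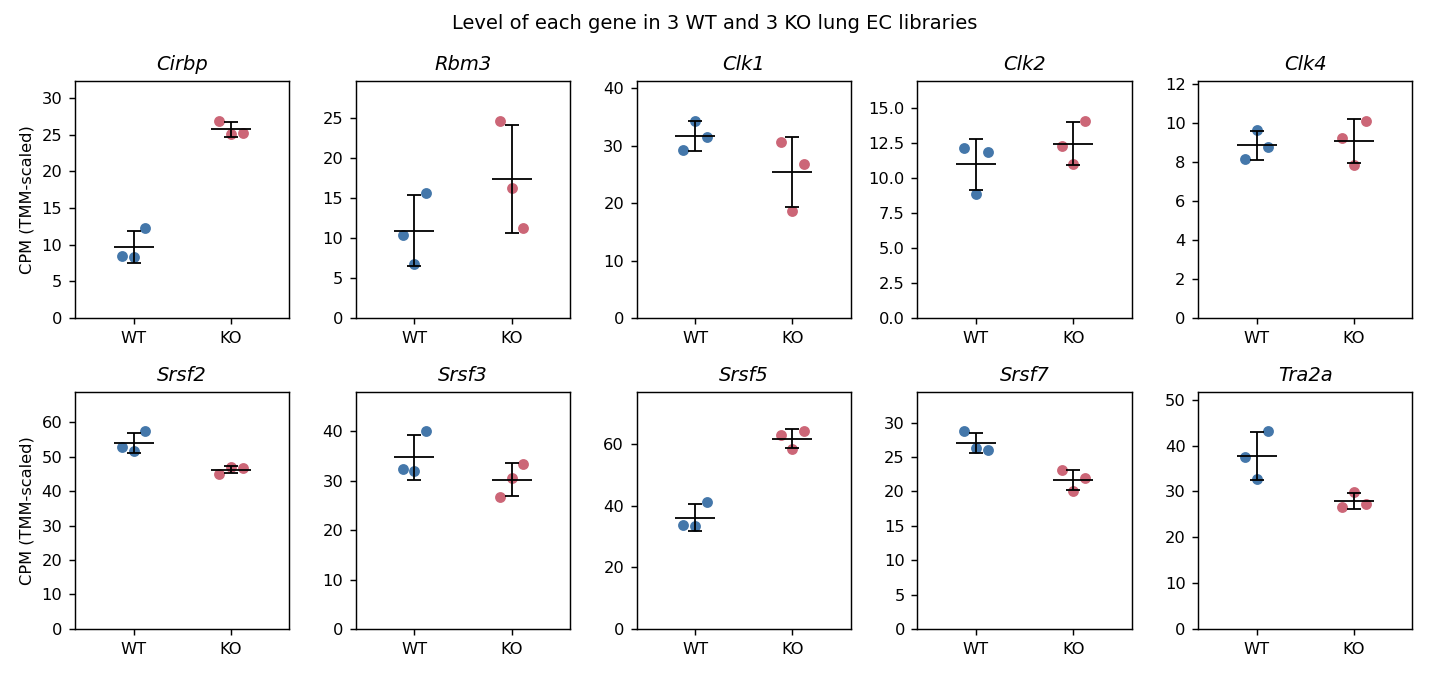
Level of each of the 10 genes in CPM (y axis, from 0) in 3 WT and 3 KO libraries; points are libraries, horizontal bars the mean and whiskers the SD. Cirbp and Srsf5 lie higher in every KO library, Srsf2, Srsf7 and Tra2a lower, and the other 5 genes overlap.

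Cirbp (ENSMUSG00000045193, GRCm38 chromosome 10, 80165985 to 80172786, plus strand) had 8.52, 8.40 and 12.2 CPM in the WT libraries, given here and below in the order of replicates 1, 2 and 3. The KO libraries had 26.9, 25.1 and 25.2 CPM. The KO libraries thus lay close together and more than 2 times above the highest WT library. Mean levels were 9.71 ± 2.17 CPM for WT and 25.7 ± 1.03 CPM for KO (SD, n = 3 each). The difference on the log2 scale was 1.41 (standard error 0.18), or 2.66-fold. Ranked by p, Cirbp was the last of the 16 genes called. It kept a log2 fold change between 1.19 and 1.58 in the 18 alternative settings. It was called in 12 of them and not with a minimum of 10 counts in every library, with the replicate block, or without WT replicate 1 (1.32), KO replicate 1 (1.35), KO replicate 2 (1.40) or KO replicate 3 (1.42). The B cell markers were also higher in KO. The summed level of that list of 6 genes, all 6 of them higher in KO and 2 of them called, was 9.57, 17.1 and 21.5 CPM in WT and 75.3, 70.3 and 74.7 CPM in KO, and no marker of the list was at 0 throughout. The 6 T cell markers ranged from 3.35 to 6.60 CPM in WT and from 8.42 to 12.6 CPM in KO. Such higher values were not limited to lymphocyte markers, since 8.59% of all genes tested were higher in every KO library than in any WT library. The part of B and T cells in the level of Cirbp was not tested. In bulk RNA a change in the number of cells of a type and a change in RNA per cell cannot be told apart. With the alveolar type II markers as a covariate, the log2 fold change of Cirbp was 1.43.

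Rbm3 (ENSMUSG00000031167, chromosome X, 8138975 to 8145880, minus strand), the close relative of Cirbp, did not share its separation. It had 10.4, 6.75 and 15.7 CPM in the WT libraries and 24.7, 16.3 and 11.3 CPM in the KO libraries. KO replicate 3 lay below WT replicate 3, and the CV between libraries was 41.0% in WT and 38.9% in KO, the highest of the 10 genes in either group. The log2 fold change of 0.67 (standard error 0.36) was less than 2 standard errors from 0. It ranged from 0.31 (without KO replicate 1) to 0.99 (without WT replicate 3) when each library was left out in turn, with 0.39 without WT replicate 2, and was 0.43 with total counts free of mitochondrial genes. The ratio of Cirbp to Rbm3 per length was 1.71 ± 0.465 (SD, n = 3) in WT and 2.92 ± 1.03 (SD, n = 3) in KO, with overlapping groups.

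Of the CLK kinases, none had separate groups. Clk1 (ENSMUSG00000026034, chromosome 1, 58410189 to 58424066, minus strand) had 29.3, 34.4 and 31.6 CPM in the WT libraries and 30.6, 18.7 and 26.9 CPM in the KO libraries. KO replicate 2 was the low library, and KO replicate 1 lay inside the WT range. The log2 fold change was -0.32 (standard error 0.19), with -0.17 without KO replicate 2, -0.50 without KO replicate 1 and -0.52 with total counts free of mitochondrial genes.

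Clk2 (ENSMUSG00000068917, chromosome 3, 89164795 to 89176921, plus strand) had 12.2, 8.90 and 11.9 CPM in the WT libraries and 12.3, 11 and 14.1 CPM in the KO libraries. Clk4 (ENSMUSG00000020385, chromosome 11, 51261730 to 51281766, plus strand), the closest relative of Clk1, had 8.15, 9.63 and 8.76 CPM in the WT libraries and 9.24, 7.84 and 10.1 CPM in the KO libraries. For both kinases the KO values ran across the WT values. The log2 fold changes of 0.18 (Clk2, standard error 0.18) and 0.035 (Clk4, standard error 0.16) were no larger than about 1 standard error, and their sign turned with total counts free of mitochondrial genes, at -0.052 and -0.16. That of Clk4 turned also with total-count scaling (-0.12), with the alveolar type II covariate (-0.045) and without WT replicate 1 (-0.028) or KO replicate 3 (-0.052).

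The 4 SR protein genes divided. Srsf5 (ENSMUSG00000021134, chromosome 12, 80945504 to 80950507, plus strand), which encodes SRp40, had 33.8, 33.5 and 41.2 CPM in the WT libraries and 62.9, 58.4 and 64.2 CPM in the KO libraries. The lowest KO library was well above the highest WT library. Mean levels were 36.1 ± 4.36 CPM for WT and 61.9 ± 3.05 CPM for KO (SD, n = 3 each). The difference on the log2 scale was 0.78 (standard error 0.13), or 1.71-fold. Srsf5 had rank 53 of 14625 by p and was not called in the edgeR test of all 6 libraries. It was called by DESeq2 (which called 1.21% of all genes, 0.569% higher and 0.64% lower in KO) and by edgeR's likelihood ratio test (1.44% of all genes). It was also called with no filter (0.582% of all genes) and without WT replicate 2 (0.69, where 5.29% of all genes were called). Its log2 fold change was above 0 in all 18 alternatives (0.56 to 0.86). The B cell and T cell markers described with Cirbp were also higher in KO, and their part in the level of Srsf5 was not tested.

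Srsf2 (ENSMUSG00000034120, chromosome 11, 116849901 to 116853094, minus strand), the speckle protein SC35, had 52.9, 51.8 and 57.4 CPM in the WT libraries and 45.0, 46.9 and 46.6 CPM in the KO libraries. Srsf7 (ENSMUSG00000024097, chromosome 17, 80200089 to 80207305, minus strand), an SR protein that also takes part in mRNA export, had 28.7, 26.3 and 26.1 CPM in the WT libraries and 23.0, 20.1 and 21.9 CPM in the KO libraries. Both had separate groups with small differences, at log2 fold changes of -0.23 (standard error 0.11) and -0.32 (standard error 0.12).

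Srsf3 (ENSMUSG00000071172, chromosome 17, 29032673 to 29043366, plus strand), the smallest SR protein and another export adaptor, had 32.3, 32.0 and 40.0 CPM in the WT libraries and 26.7, 30.5 and 33.4 CPM in the KO libraries. KO replicate 3 lay above WT replicates 1 and 2, so that the groups overlapped, and the log2 fold change was -0.20 (standard error 0.15), or -0.11 without WT replicate 3. Tra2a (ENSMUSG00000029817, chromosome 6, 49243924 to 49264033, minus strand), an activator that binds GAA-rich exonic enhancers, had 37.6, 32.7 and 43.1 CPM in the WT libraries and 26.6, 29.8 and 27.3 CPM in the KO libraries. On the log2 scale its difference of -0.44 (standard error 0.14) was the lowest of the 10, and its KO libraries lay within a narrower range than its WT libraries. The log2 fold changes of Clk1, Srsf2, Srsf3, Srsf7 and Tra2a were below 0 in all 18 alternatives, and none of these genes was called in any of them. With total counts free of mitochondrial genes, which lowers the median of all genes to -0.18, the value was -0.45 for Srsf2, -0.42 for Srsf3, -0.54 for Srsf7 and -0.67 for Tra2a.

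**Figure D2:**
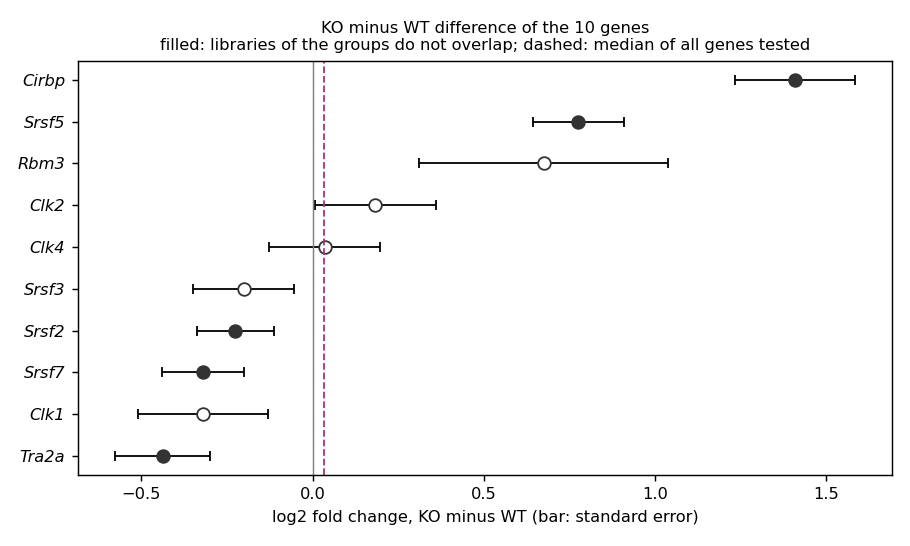
Log2 fold change of each gene (x axis, KO minus WT, bars are standard errors from edgeR's quasi-likelihood fit); filled points have WT and KO libraries that do not overlap, and the dashed line is the median of all genes tested. Cirbp (1.41) and Srsf5 (0.78) lie to the right and Tra2a (-0.44) lies lowest; the small values of Clk2 and Clk4 turn in sign with total counts free of mitochondrial genes, that of Clk4 also with total-count scaling.

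Within a library, the 10 genes were set against their own mean over the 6 libraries on a log2 scale. WT replicate 3 was the highest WT library for Cirbp (-0.36) and Srsf5 (-0.20). The same held for Rbm3 (0.26), Srsf2, Srsf3 and Tra2a, but not for Clk1, Clk2, Clk4 and Srsf7. Rbm3 had its lowest value in WT replicate 2 (-0.95) and its highest in KO replicate 1 (0.91). Clk1 was lowest in KO replicate 2 (-0.58). Srsf2, Srsf3 and Tra2a had their highest value of all 6 libraries in WT replicate 3 (0.20, 0.31 and 0.41). That library had 54.5% of its counts on mitochondrial genes, and Srsf7 had its lowest WT value there (0.11).

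**Figure D3:**
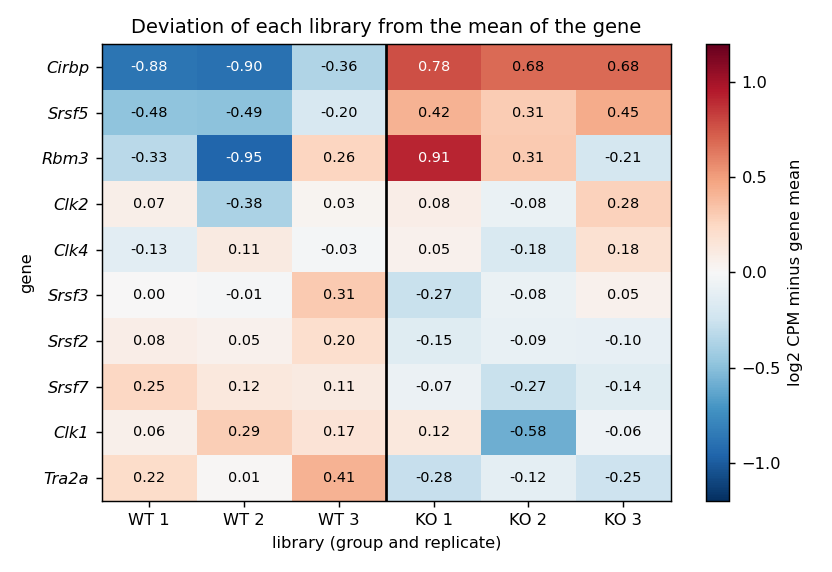
Each cell is the log2 CPM of a gene (row) in a library (column, WT left and KO right of the line) minus the mean of that gene over the 6 libraries. The rows of Cirbp and Srsf5 are negative in all WT and positive in all KO libraries, while Rbm3 ranges from -0.95 to 0.91 with both signs in each group.

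The levels of the genes were compared with each other only per length, as RPKM over all annotated exons of a gene. In WT, Srsf2 was highest at 18.3 ± 1.01 RPKM (SD, n = 3), followed by Srsf7 (11.9 RPKM), Srsf5 (9.06 RPKM), Srsf3 (6.81 RPKM) and Tra2a (5.44 RPKM), and the range of each over the libraries lay clear of the next. Below them Clk1 (3.90 RPKM), Cirbp (3.73 RPKM), Rbm3 (2.33 RPKM) and Clk2 (2.07 RPKM) overlapped each with the next, and Clk4 was lowest at 1.53 ± 0.128 RPKM. In KO, Srsf5 at 15.5 ± 0.765 RPKM overlapped with Srsf2 at 15.6 ± 0.350 RPKM. Cirbp, at rank 7 in the WT order, had rank 3 in KO at 9.87 ± 0.397 RPKM and overlapped with Srsf7 at 9.51 ± 0.654 RPKM. Tra2a, Rbm3, Clk1 and Clk2 formed the next overlapping run, from 4.01 to 2.35 RPKM, and Clk4 was again lowest at 1.56 RPKM. The annotated exons include introns that some transcripts keep, which lengthens genes such as Clk1 (8132 bases) and lowers their RPKM.

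**Figure D4:**
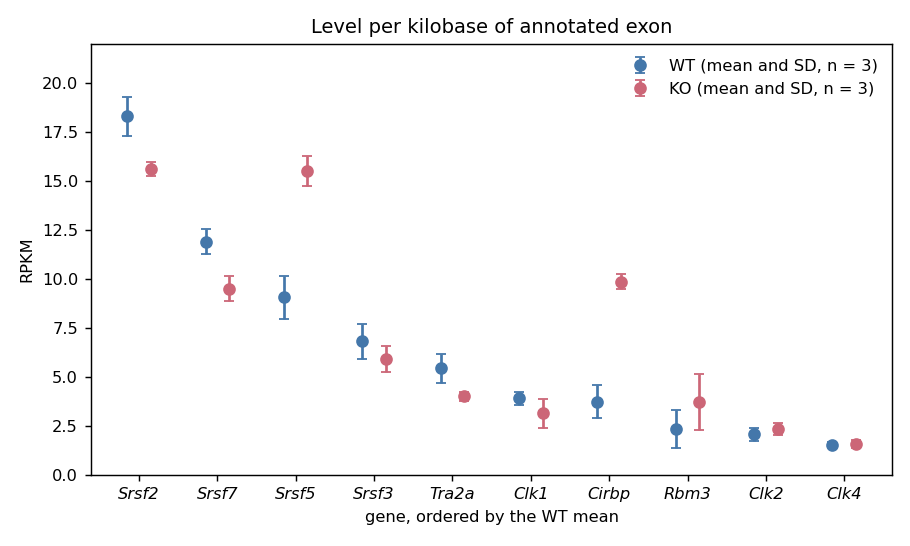
RPKM of each gene (y axis, from 0), ordered by the WT mean; points are means and bars SDs over 3 libraries. Srsf5 reaches the level of Srsf2 in KO (15.5 and 15.6 RPKM), and Cirbp is at 3.73 RPKM in WT and 9.87 RPKM in KO.

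Of 7 ratios of related genes computed within libraries, that of Srsf5 to Srsf3 varied least within WT. The RPKM of Srsf5 was 1.34, 1.34 and 1.32 times that of Srsf3 in WT replicates 1, 2 and 3, although both genes were highest in WT replicate 3. In KO it was 3.02, 2.45 and 2.46 times that of Srsf3. A ratio within a library does not depend on how the libraries are scaled, but it does not show which gene of the pair changed. The corresponding ratio of Tra2a to its paralog Tra2b was 1.49 ± 0.0335 (SD, n = 3) in WT and 1.45 ± 0.355 (SD, n = 3) in KO.

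All 10 genes share a feature of annotation that their choice did not use. GENCODE lists, for every one of them, at least 1 transcript that is subject to nonsense-mediated decay and at least 1 with a retained intron. Of 13682 tested genes with a coding transcript, 21.4% have both kinds, and 35.7% of the 7542 that have at least 5 transcripts, the lowest number among the 10. Of 97 transcripts of the 10 genes, 32 are coding, 16 are of the decay class and 37 retain an intron. Clk1 and Clk4 have 7 transcripts with a retained intron each, the highest number of the 10, and Cirbp has 4 beside 2 coding transcripts. Of the other SR and TRA2 genes tested, 5 of 7 have both kinds. The counts add up the reads of all transcripts of a gene, so that a change in coding and in unproductive transcripts cannot be told apart. The genes are also compact: each spans less than the median of 24658 bases, from 3194 bases (Srsf2) to 20110 bases (Tra2a).

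Promoters of 8 of the 10 genes (9 windows, as Cirbp has 2 start sites) were matched in RefSeq's annotation of GRCm38.p6, from 250 bases before to 50 after the start. Rbm3 and Clk1 were not matched. GC content ran from 56.0% to 70.0% in these windows, beside a median of 52.7% over 32851 promoters. Both strands were searched for 5 motifs. The mild cold response element described for the Cirbp gene, TCCCCGCC, was found in the first window of Cirbp and in that of Srsf7, where it overlaps a GC box, and 5.38% of all promoters hold it. Its first base lies at position -247 from the start in Cirbp and at -44 in Srsf7. The cAMP response element TGACGTCA was found for Clk4 and Tra2a (1.79% of all promoters) and the E-box CACGTG for Clk2 (7.15%). GAANNTTC, a pair of heat shock element units, was in none of the 9 windows (7.86% of all promoters). The GC box GGGCGG was found for 7 of the 8 genes, the exception being Srsf3 (35.7% of all promoters). A match is a description of the letters and not evidence of binding. The 250 bases before the start are shown 5′ to 3′ on the strand of the gene for both genes with separate higher KO values, Cirbp (first start site, chr10:80167589-80167838, plus strand) and Srsf5 (chr12:80945249-80945498, plus strand), and for both genes with the lowest log2 fold changes among those matched, Srsf7 (chr17:80207306-80207555, minus strand) and Tra2a (chr6:49264053-49264302, minus strand). Capitals mark the cold response element in Cirbp and Srsf7 and the cAMP response element in Tra2a, and no capitals stand in Srsf5, which holds none of the searched motifs but GC boxes, which are not marked.
Cirbp: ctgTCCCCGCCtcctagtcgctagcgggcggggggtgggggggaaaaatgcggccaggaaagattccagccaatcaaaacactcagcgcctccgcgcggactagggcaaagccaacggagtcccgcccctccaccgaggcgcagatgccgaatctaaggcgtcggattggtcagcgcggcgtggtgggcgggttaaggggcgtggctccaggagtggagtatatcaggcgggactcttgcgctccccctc
Srsf5: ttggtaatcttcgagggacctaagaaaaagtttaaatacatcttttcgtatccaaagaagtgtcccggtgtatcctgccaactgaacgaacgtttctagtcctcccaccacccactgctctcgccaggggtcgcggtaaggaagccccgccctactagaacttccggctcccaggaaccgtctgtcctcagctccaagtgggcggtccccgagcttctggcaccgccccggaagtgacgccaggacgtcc
Srsf7: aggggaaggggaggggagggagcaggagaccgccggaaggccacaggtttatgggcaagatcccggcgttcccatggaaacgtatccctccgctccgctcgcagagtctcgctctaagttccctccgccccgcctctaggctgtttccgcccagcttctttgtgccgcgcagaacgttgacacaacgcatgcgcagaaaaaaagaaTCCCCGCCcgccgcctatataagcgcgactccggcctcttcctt
Tra2a: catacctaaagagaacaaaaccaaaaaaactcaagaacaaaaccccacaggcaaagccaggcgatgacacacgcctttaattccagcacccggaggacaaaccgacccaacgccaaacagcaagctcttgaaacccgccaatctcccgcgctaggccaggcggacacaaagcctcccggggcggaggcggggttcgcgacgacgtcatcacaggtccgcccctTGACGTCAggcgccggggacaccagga

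The other genes of the splicing machinery were looked at in 8 lists of 145 genes in all, of which 138 were tested. None of the 138 was called by edgeR's quasi-likelihood test, whose lowest adjusted p in these lists was 0.285 (Nktr), nor by DESeq2, limma-voom or edgeR's likelihood ratio test. At an unadjusted p under 0.05 there were 17, with 2 higher and 15 lower in KO, beside 10.3% of all genes tested (5.62% higher and 4.68% lower). Of the 138, 105 had a log2 fold change below 0, with a median of -0.12, whereas 54.1% of all genes tested were above 0. Among the 7634 genes tested with a mean log2 CPM no lower than that of Clk4, the lowest of the 10 described, 47.4% were above 0 and the median was -0.017. The lists had 118 genes at such levels, 92 of them below 0, with a median of -0.13. Without WT replicate 2, 3 of them were called, all lower in KO: Nktr (-0.55), Hnrnpa2b1 (-0.78) and Hnrnpc (-0.71). That setting called 5.29% of all genes, 660 higher and 131 lower, so that nothing is read from the count of 3. Nktr and Hnrnpc were named after their values were seen.

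The 7 other SR and TRA2 genes tested were all below 0, with a median of -0.19, from Srsf1 (-0.37, standard error 0.14) to Srsf6 (-0.029, standard error 0.14). Srsf1, the classical splicing factor ASF/SF2, had a mean of 126 ± 13.6 CPM for WT and 97.2 ± 1.5 CPM for KO (SD, n = 3 each). None of the 7 was above 0, unlike Srsf5 at 0.78. The 11 other kinases of SR proteins had a median of -0.061 with 4 above 0 and 7 below it, ranging from Hipk2 (-0.50, standard error 0.24) to Dyrk1b (0.33, standard error 0.21), and that median was 0.056 with the alveolar type II covariate.

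The 27 SR-related genes had a median of -0.11 with 19 below 0, from Rsrp1 (-0.54, standard error 0.14) to Rbm25 (0.34, standard error 0.31). The 25 hnRNP genes, many of which oppose SR proteins at exons, had a median of -0.14 with 18 below 0. Hnrnpa2b1 was the lowest (-0.59, standard error 0.21) and Hnrnpdl, which also controls its own splicing, the highest (0.53, standard error 0.15), with 38.1 ± 6.58 CPM for WT and 54.9 ± 0.775 CPM for KO (SD, n = 3 each) and separate groups. Of 31 core spliceosome genes, 28 were below 0 (median -0.13), between Sf3b4 (-0.50, standard error 0.22) and Snrpc (0.033, standard error 0.24). The 23 other splicing regulators (median -0.12) ran from Mbnl3 (-0.69, standard error 0.29) to Rbmx (0.28, standard error 0.15), the gene of an RNA-binding protein related to CIRBP and RBM3.

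The 4 cold shock domain genes tested, a family that shares a name but no RNA recognition motif with CIRBP, were all below 0 (median -0.25), from Carhsp1 (-0.46, standard error 0.18) to Ybx1 (-0.077, standard error 0.26). The 10 genes of nonsense-mediated decay had a median of -0.11 with 8 below 0, from Smg8 (-0.43, standard error 0.19) to Upf3b (0.56, standard error 0.30). The highest value in the 8 lists was thus that of Upf3b, lower than those of Cirbp, Srsf5 and Rbm3 (0.67, standard error 0.36). Nothing is read from that order, since the 10 genes were chosen with this contrast known.

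**Figure D5:**
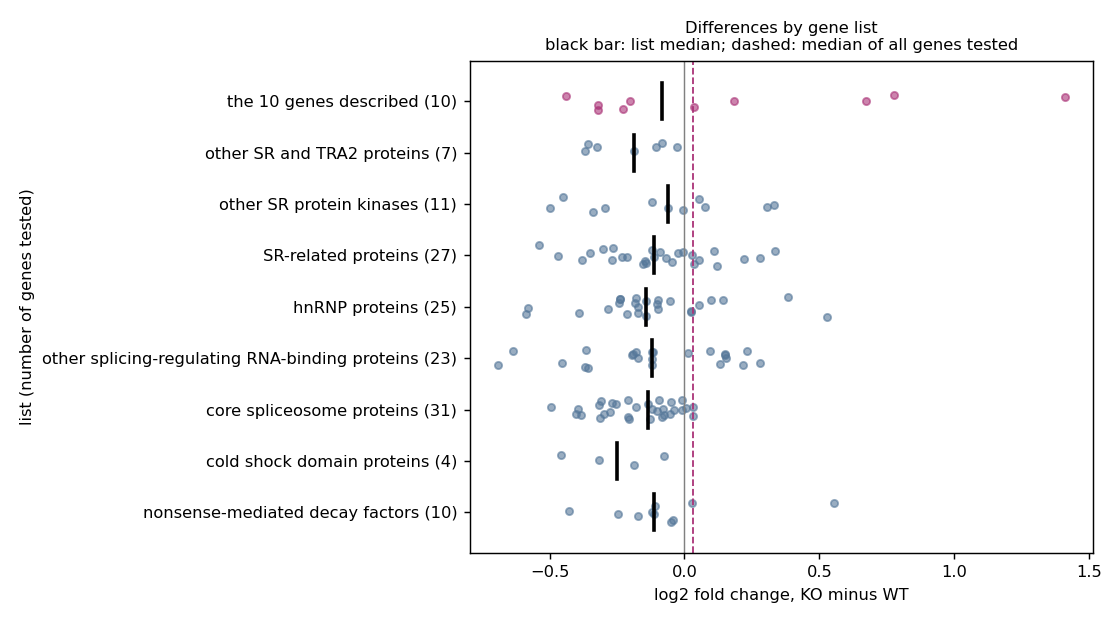
Log2 fold change (x axis, KO minus WT) of each tested gene in the 10 genes described and in 8 lists of splicing and RNA-binding genes; points are genes, black bars list medians and the dashed line the median of all genes tested. Cirbp, Srsf5 and Rbm3 lie to the right of every gene in the 8 lists, an order not read as a result because the 10 genes were chosen with this contrast known. The list medians run from -0.25 to -0.061, the latter 0.056 with the alveolar type II covariate.

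The profiles over the 6 libraries were compared with those of 11627 genes with a mean log2 CPM above 1, by the root mean square difference of centred log2 CPM. The centring kept the difference between KO and WT, which was known when the genes were chosen, so that nearness in part restates that difference. The profile nearest to Cirbp was that of Ly9 (0.17 log2 units), a SLAM family receptor of lymphocytes, with a mean of 2.22 CPM for WT and 5.25 CPM for KO. Triqk (0.21), Txnrd3 (0.22), a thioredoxin reductase, Pnkd (0.25) and Adcyap1r1 (0.25), the receptor of PACAP, followed, and the median over all genes was 0.76. Among the other 9 genes described, Srsf5 was nearest to Cirbp at rank 33 (0.33), then Rbm3 at rank 481 (0.52), and Tra2a was farthest at rank 10563 (0.93). The profile nearest to Clk1 was that of Med7 (0.056), a Mediator subunit, followed by Gemin2 (0.062), a factor of snRNP assembly, Lyst (0.078), Spsb3 (0.079) and Zfp954 (0.082). Srsf7 came at rank 301 (0.19) and Clk4 at rank 1163 (0.23).

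The 20 nearest tested genes, 1 on each side, had a median log2 fold change of 0.031, with 11 above 0 and 9 below it. Of the 20, 4 had separate groups, beside 17.8% of all genes tested. None was called by edgeR's quasi-likelihood test or limma-voom, with 4 at an unadjusted p under 0.05 in the former, beside 10.3% of all genes. DESeq2 and the likelihood ratio test, which called 1.21% and 1.44% of all genes, called 1 (Ccdc126, 55241 bases from Tra2a, log2 fold change 1.10). Around Cirbp, 1600002K03Rik, which begins 158 bases after it on the same strand, had -0.30 (standard error 0.27) and Midn -0.19 (standard error 0.17). Around Srsf5, Susd6 had 0.23 (standard error 0.27) and Smoc1 -0.034 (standard error 0.43). Next to Clk1, Bzw1 had -0.35 (standard error 0.13) with separate groups and Ppil3 -0.058 (standard error 0.19). Next to Srsf2, Jmjd6, a hydroxylase that acts on splicing factors, had a mean of 14.4 CPM for WT and 9.0 CPM for KO. The difference was -0.68 on the log2 scale (standard error 0.15), and its groups were separate. Its adjusted p in edgeR's quasi-likelihood test was 0.259. Srsf2 is also overlapped on the other strand by Mettl23 (0.091, standard error 0.18) and Mfsd11 (0.59, standard error 0.26). Reads were counted by strand, so that these do not add to Srsf2, and the other 4 genes that overlap one of the 10 had at most 4 counts in a library.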

How the data were processed

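The authors deposited whole-number counts of reads per gene, 1 table per library, without normalization. Per the labels and file headers, reads were aligned with STAR 2.5.4b to mm10 and uniquely aligned reads were counted with featureCounts 2.0.0 over exons, on the reverse strand, with the Ensembl release 84 annotation of GRCm38. Symbols were taken by Ensembl identifier from GENCODE's annotation of the same build for 47224 of 47729 genes. Groups came from the sample titles. The genes described and the lists were chosen with earlier results of these data known.

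Genes were filtered with filterByExpr, scaled by TMM and tested in R 4.3.3 with edgeR 4.0.16 (glmQLFit and glmQLFTest, default options, genotype as the only term), over 14625 genes with Benjamini-Hochberg adjustment. The study used DESeq2, run here (1.42.0) as an alternative beside limma-voom (limma 3.58.1), edgeR's likelihood ratio test, other scalings and filters, the replicate number as a block, an alveolar type II covariate and each library left out. Scripts were tested on simulated data. No pair of libraries held like counts (chi-square divided by its degrees of freedom, 40.4 for the most similar pair). An exact permutation test of 3 against 3 libraries cannot go below 0.1. CPM uses TMM-scaled library sizes, and RPKM divides it by the exon length in the deposited tables. A standard error is the size of the log2 fold change divided by the square root of the quasi-likelihood F value. It therefore carries variance estimates shared across genes and not only the spread of the gene itself. Named genes were all 10, the highest and lowest log2 fold change of each list above a mean log2 CPM of 1, the 5 nearest profiles to Cirbp and to Clk1, and chromosomal neighbours. The ratios of gene pairs were added to this plan. The neutrophil markers summed to 27.0 to 70.0 CPM in WT and 35.9 to 39.6 in KO, the macrophage markers to 124 to 336 and 171 to 417, the mesenchymal markers to 332 to 752 and 515 to 742, and the erythroid markers to 61.1 to 100.4 and 65.3 to 102.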

Additional observations from a re-analysis of the deposited data

How the results depend on the processing

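Total-count scaling shifted the median log2 fold change of all genes from 0.033 to -0.13, and total counts free of mitochondrial genes to -0.18. Under these, the median of the 10 genes moved from -0.083 to -0.23 and -0.29, of other SR kinases from -0.061 to -0.28 and -0.30, of SR-related genes from -0.11 to -0.28 and -0.34, of hnRNP genes from -0.14 to -0.32 and -0.37, and of neighbours from 0.031 to -0.12 and -0.16. That of other SR and TRA2 genes moved to -0.41 under the latter. The log2 fold change of Clk4 turned to -0.12 and -0.16 and that of Clk2 to -0.052 under the latter. With the alveolar type II covariate, 49 genes were called, the kinase median was 0.056, the neighbour median -0.067 and Clk4 -0.045. The number of genes called, 16, was 187 with DESeq2, 26 with limma-voom, 211 with the likelihood ratio test, 26 with RLE, 31 with upper-quartile, 123 with total-count scaling, 114 without mitochondrial genes and 152 with no filter. Of the 10 genes, 2 were called with DESeq2 (1.21% of all genes), with the likelihood ratio test (1.44%) and with no filter (0.582%). With at least 10 counts in every library, 0 of the 10 and 0.106% of all genes were called, where 1401 genes had an unadjusted p under 0.05.

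With the replicate block, edgeR called 0 genes (1776 at an unadjusted p under 0.05), none of the 10. The sample titles do not say whether equal numbers pair the libraries. Deviations from the group means correlated at -0.08, 0.22 and 0.01 for equal numbers, and only the libraries numbered 2 were closest to their own number. With 3 libraries per group these deviations depend on each other, so the correlations cannot decide on a pairing. Leaving out each library in turn gave 0 to 791 genes called, 0 to 2 of the 10, 0 to 3 of the pathway lists, medians of -0.14 to -0.032 for the 10, -0.29 to -0.059 for other SR and TRA2 genes, -0.13 to -0.0004 for the kinases, -0.22 to -0.059 for SR-related genes, -0.23 to -0.064 for hnRNP genes and -0.029 to 0.11 for neighbours, and Clk4 at -0.052 to 0.10 (-0.028 without WT replicate 1, -0.052 without KO replicate 3). Of 181 counts and medians recomputed under an alternative, 143 stayed within 1.5 times the count or within the spread between libraries. Some of these could not change, such as the number of separate groups where an alternative kept the same CPM values. This share therefore does not measure how stable the results are. Clk4 had the fewest counts of the 10, 187 to 333 per library, followed by Rbm3, at 230 to 575, and Clk2, at 254 to 497.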
